A study of Homo sapiens with 27 samples.

Results

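The 43 genes described here are known for their induction by interferon. They were taken as a list of gene symbols, not by a threshold on their values, and each symbol matched 1 of the 60619 genes of the count table. They were measured by RNA-Seq in 27 libraries of MM134 (MDA-MB-134VI) and SUM44 cells, human cell lines of invasive lobular breast carcinoma that express the estrogen receptor. The libraries formed 9 groups of 3. The study compared long-term estrogen-deprived (LTED) variants, which model resistance to aromatase inhibitors, with their parental cultures. MM134 parental cells, SUM44F and SUM44PE were hormone deprived for 3 days before collection. In the study's methods this deprivation was repeated washing and culture in medium with charcoal-stripped serum. SUM44F arose from SUM44PE by culture in another serum-containing medium, and the study used it as the parental culture of the SUM44 variants. LTED-A, LTED-B, LTED-D, LTED-E (MM134) as well as LTED-A and LTED-B (SUM44) were outgrowths kept for months in medium with charcoal-stripped serum. A variant is thus 1 derived line, and its 3 libraries came from wells of that line. Charcoal removes other lipophilic molecules along with estrogen. P-values measure the spread between such wells.

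Interferons are secreted proteins that bind cell-surface receptors and act through JAK kinases. Type I interferons lead to a complex of STAT proteins with IRF9, called ISGF3, which binds the interferon-stimulated response element (ISRE) in promoters. The induced genes encode sensors of foreign RNA, enzymes that degrade or block viral RNA, membrane proteins that hinder viral entry and release, and regulators that feed back on the response. In tumour cells a subset of these genes can also be expressed without added interferon.

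Levels are given as CPM (counts scaled to the library total), scaled over all samples by TMM. Differences are log2 fold changes from edgeR's quasi-likelihood test, fitted to all genes of a cell line. After a log2 fold change, the value following ± is an approximate standard error. It is the absolute log2 fold change divided by the square root of the test's F statistic. With few counts it can be smaller than counting error alone. A gene is called higher or lower where the fold change exceeded 1.5 and the Benjamini-Hochberg adjusted p over all genes tested was under 0.001. Library totals ran from 28583554 to 134882175 counts, with a median of 44018412. SUM44 LTED-A replicates 2 and 3 differed by less than sampling noise (chi-square per degree of freedom 0.312, against 2.35 to 58.1 in the 26 other pairs of replicates). They were averaged and counted as 1 sample, so n = 2 for that group and n = 3 for the others. The luminal epithelial markers KRT8, KRT18, KRT19, EPCAM, GATA3 and FOXA1 summed to between 4013 and 7033 CPM in every sample.

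SUM44F replicate 1 stood apart in fibroblast markers, and all 3 SUM44F libraries in leukocyte and endothelial sums. The fibroblast markers COL1A1, COL3A1, PDGFRB and DCN summed to 270.3 CPM in it, to 8.55 and 7.33 CPM in SUM44F replicates 2 and 3, and to between 4.58 and 30.8 CPM in the 23 samples of the other groups. COL3A1 alone was at 135, 0.703 and 0.468 CPM in the 3 SUM44F libraries. The 9 leukocyte markers summed to 53.3, 45.3 and 38.7 CPM in SUM44F replicates 1, 2 and 3, and to at most 26.2 CPM in the 23 other samples. ITGAM made up most of this, at 45.2, 43.9 and 36.96 CPM. Among the other leukocyte markers PTPRC (2.604, 0.332 and 0.423 CPM), CD14 (1.82, 0.0586 and 0.0445 CPM) and NKG7 (1.39, 0 and 0 CPM) were higher in replicate 1, whereas CLEC4C (0.217, 0.195 and 0.412 CPM) was not, and the B-cell gene MS4A1 was at 0 in all 3. The endothelial markers PECAM1, VWF and CDH5 summed to 40.5, 31.3 and 25.8 CPM, and to at most 11.1 CPM elsewhere. PECAM1 made up most of this sum, at 27.3, 26.8 and 21.7 CPM. Of the 43 interferon-stimulated genes, 4 were more than 1.5 times as high in SUM44F replicate 1 as in the mean of replicates 2 and 3. These were IFITM1, IFITM2, HERC6 and GBP1, and IFITM2 had the largest ratio, at 6.83. The median ratio over the 43 genes was 1.06. The counts of called genes against SUM44F are therefore also given without replicate 1, which does not remove the higher leukocyte and endothelial sums of replicates 2 and 3. Without it, the fitted log2 fold changes of the 43 genes against SUM44F moved by a median of 0.044 in SUM44 LTED-A and 0.043 in LTED-B. IFITM2 alone moved by more than 1.5-fold in either comparison, from -1.64 to -0.15 and from -1.36 to 0.13, and it was not called in any of these fits.

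What the genes share in sequence was examined in RefSeq promoter windows on GRCh38.p14, from 250 bases before to 50 after the transcript start. Windows were listed for 35 of the 43 genes. The core of the ISRE was searched on both strands as GAAA, any 2 bases and GAAA again, and overlapping matches were counted separately. It was present in 25 of the 35 genes with a window (71.4%) and in 1195 of 27305 genes in all (4.38%). With the window cut to 150 bases before the start, the same 25 of 35 counts stood against 2.86% of all genes. Except for the last, the following stretches end at the base before the transcript start. All read 5′ to 3′ on the gene's strand, with each core in capitals; a core on the other strand reads TTTC, any 2 bases and TTTC. They are shown for genes with contrasting behaviour in the results that follow. ISG15 rose in 1 MM134 variant, and its stretch holds overlapping cores at chr1:1013337-1013496 (plus strand).
ISG15: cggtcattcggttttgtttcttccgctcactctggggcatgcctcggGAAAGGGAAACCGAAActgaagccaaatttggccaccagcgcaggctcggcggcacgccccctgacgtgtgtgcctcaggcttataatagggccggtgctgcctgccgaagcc
IFIT1 and IFIT3 lie in 1 gene cluster and were higher in MM134 LTED-A and lower in both SUM44 variants (chr10:89392463-89392622 and chr10:89332369-89332528, plus strand).
IFIT1: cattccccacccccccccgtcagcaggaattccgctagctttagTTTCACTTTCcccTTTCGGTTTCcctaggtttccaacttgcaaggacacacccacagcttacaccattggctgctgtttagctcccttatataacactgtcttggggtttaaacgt
IFIT3: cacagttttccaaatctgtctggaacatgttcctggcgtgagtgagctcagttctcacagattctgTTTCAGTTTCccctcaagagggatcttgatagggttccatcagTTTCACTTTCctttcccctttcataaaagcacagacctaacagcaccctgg
IFI6 holds 3 cores (chr1:27672193-27672352, minus strand).
IFI6: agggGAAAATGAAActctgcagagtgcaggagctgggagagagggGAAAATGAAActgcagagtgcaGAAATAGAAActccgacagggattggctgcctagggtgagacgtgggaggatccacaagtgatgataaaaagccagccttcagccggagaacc
BST2, ISG20 and OAS3 were higher in all 4 MM134 variants (chr19:17405631-17405790, minus strand; chr15:88638856-88639015 and chr12:112938314-112938473, plus strand).
BST2: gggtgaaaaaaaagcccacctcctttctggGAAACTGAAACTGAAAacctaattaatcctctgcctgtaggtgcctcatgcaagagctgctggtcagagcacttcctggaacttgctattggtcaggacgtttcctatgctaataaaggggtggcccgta
ISG20: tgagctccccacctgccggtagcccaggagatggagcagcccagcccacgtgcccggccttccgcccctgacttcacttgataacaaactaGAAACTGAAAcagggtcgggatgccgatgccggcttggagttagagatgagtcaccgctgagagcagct
OAS3: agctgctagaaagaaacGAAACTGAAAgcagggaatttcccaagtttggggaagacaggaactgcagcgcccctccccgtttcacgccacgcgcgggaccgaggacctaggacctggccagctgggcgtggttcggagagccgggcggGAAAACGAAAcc
HERC5 was the gene with the opposite pattern between the cell lines (chr4:88456959-88457118, plus strand).
HERC5: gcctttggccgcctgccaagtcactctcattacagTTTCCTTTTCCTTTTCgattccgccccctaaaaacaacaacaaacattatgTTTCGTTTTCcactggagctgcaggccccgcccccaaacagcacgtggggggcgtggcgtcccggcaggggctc
DTX3L and PARP9 are transcribed in opposite directions from neighbouring starts and share 1 core, which crosses the DTX3L start (chr3:122564301-122564341, shown to the end of the core on the strand of DTX3L).
DTX3L and PARP9: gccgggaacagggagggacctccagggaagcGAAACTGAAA

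**Figure D1:**
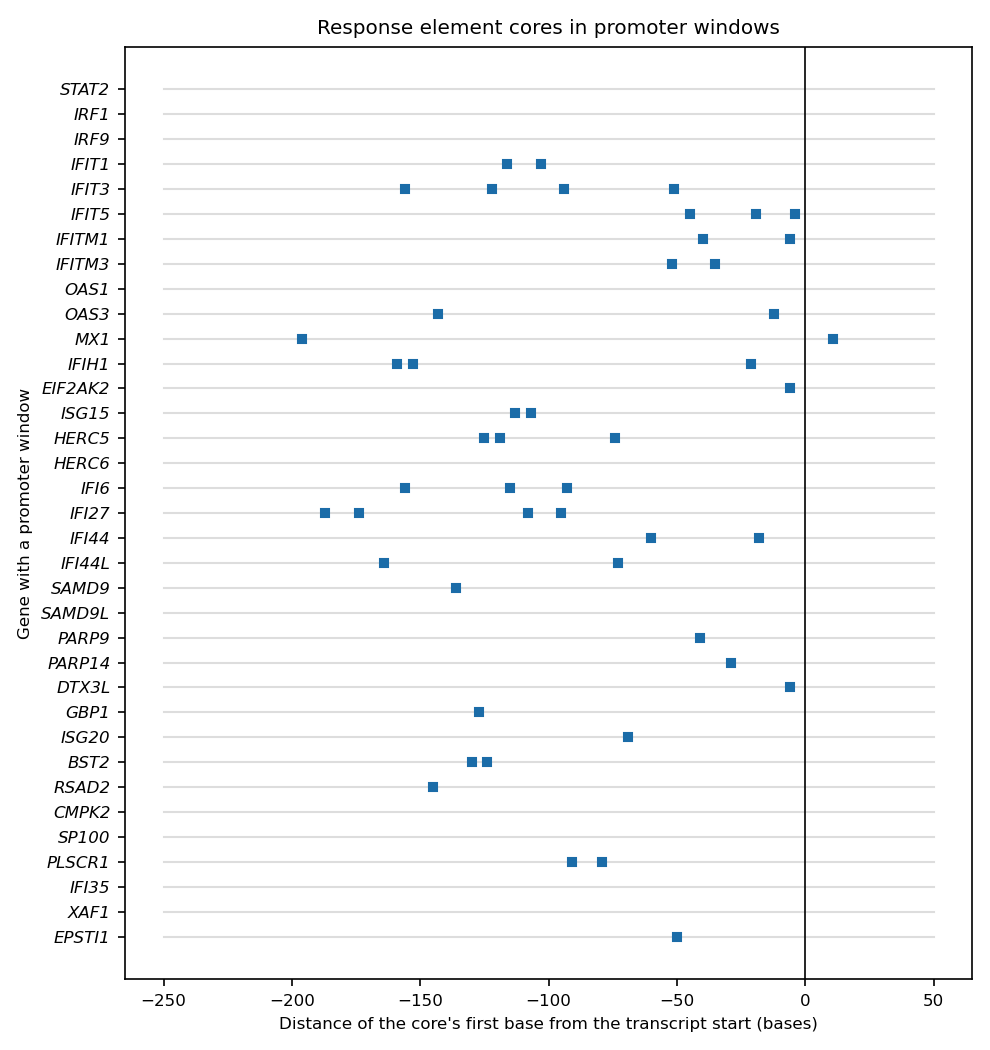
Distance in bases from the transcript start (x axis, 0 at the start) to the first base of each ISRE core, for the 35 genes with a promoter window (grey line, 250 bases before to 50 after the start). Each square is 1 core on either strand, measured from 1 transcript start. A core in windows of several starts of a gene is drawn once per start, as for IFI44, PLSCR1 and IFI27. The 25 genes with a core have it at positions from -196 to 11, and 14 of them hold more than 1 distinct core.

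The share of genes with a core lay between 63.6% and 75.0% in the classes by direction of change. It was 12 of 17 (70.6%) for the genes with a window that were higher in MM134 LTED-A, 4 of 6 (66.7%) for those lower there and 9 of 12 (75.0%) for those not called. Among genes lower in both SUM44 variants it was 7 of 11 (63.6%), and among genes called in no LTED comparison 4 of 6 (66.7%). These counts are descriptions, and a match to the letters is not a measured binding site.

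Across the 6 comparisons of an LTED variant with its parental culture, 35 of the 43 genes were called at least once. The share of all genes called at least once is not given here, so that count stands without a background. All 43 passed the filter on low counts in both cell lines. The MM134 variants had more genes higher than lower, whereas the SUM44 variants had almost solely lower calls. In MM134 LTED-A, 21 genes were higher and 6 lower, so 27 were called where 20.3% of all genes tested were called (10.5% higher and 9.82% lower). LTED-B had 15 higher and 6 lower (all genes 15.9%, with 8.11% higher and 7.75% lower). LTED-D had 13 higher and 4 lower (all genes 17.6%, with 9.63% higher and 7.95% lower), and LTED-E had 11 and 4 (all genes 19%, with 8.71% and 10.3%). SUM44 LTED-A had 1 gene higher and 16 lower, against 13.7% of all genes (6.39% higher and 7.28% lower). SUM44 LTED-B had 1 higher and 19 lower, against 17.3% (8.69% and 8.57%). The median log2 fold change of the 43 genes was 0.56, 0.38, 0.11 and 0.15 in the MM134 variants A, B, D and E. Over all genes tested the median lay between -0.03 and 0.02 in these comparisons. For the 43 genes the SUM44 medians were -0.92 (LTED-A) and -0.85 (LTED-B), beside -0.06 and -0.09 for all genes. Without SUM44F replicate 1, 16 genes were lower and 0 higher in SUM44 LTED-A (12.1% of all genes called), and 19 were lower and 1 higher in LTED-B (15.8%). All the lower calls were shared with the fit on all libraries. Beside these falls, the leukocyte sum was 16.9 to 17.4 CPM in SUM44 LTED-A and 11.4 to 12.3 CPM in LTED-B, against 38.7 to 53.3 CPM in SUM44F. Most of the leukocyte sum was the single gene ITGAM, with means of 16.1, 10.8 and 42.0 CPM in these groups. The endothelial sum was 2.80 to 3.26 CPM and 3.66 to 4.51 CPM, against 25.8 to 40.5 CPM. The part of these markers in the falls was not tested.

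**Figure D2:**
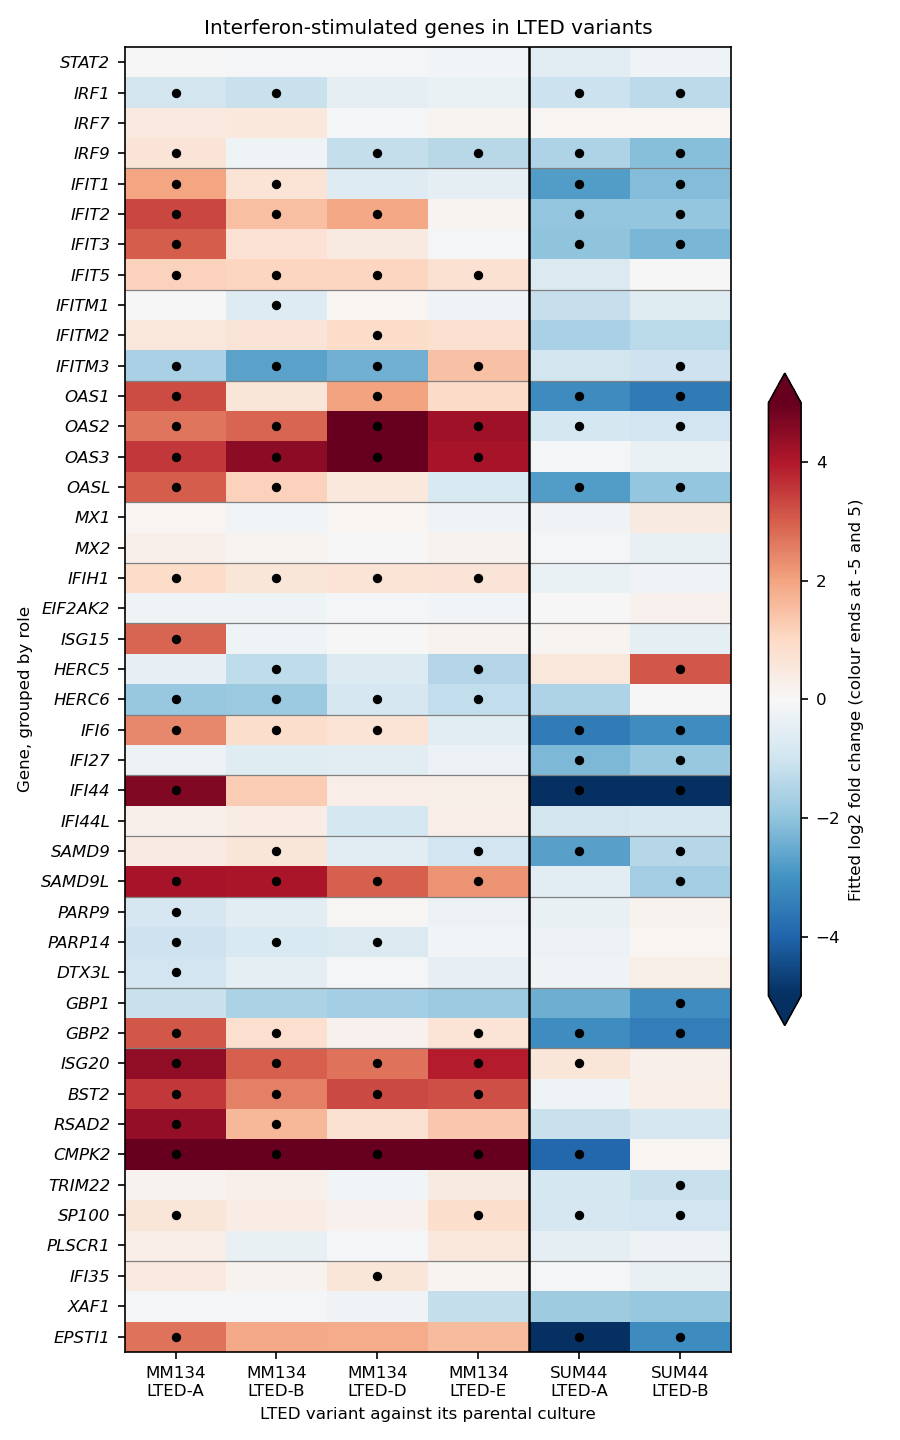
Fitted log2 fold change (colour, red higher and blue lower in the variant) of the 43 genes in rows, grouped by role, for the 6 LTED variants in columns, each against MM134 parental cells or SUM44F. Black dots mark called genes. The 4 MM134 columns hold 21, 15, 13 and 11 genes called higher, and the 2 SUM44 columns 16 and 19 called lower.

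The regulators were examined first. STAT2, a subunit of ISGF3, was not called in any comparison. It was at 75.6, 79.4 and 80.8 CPM in the MM134 parental libraries and, in LTED-A, at 78.5, 80.3 and 80.5 CPM, and these ranges overlapped. In SUM44F it was at 90.4, 92.2 and 74.8 CPM, in SUM44 LTED-A at 58.9 and 57.99 CPM and in SUM44 LTED-B at 74.1, 73.5 and 73.04 CPM. STAT2 was below every SUM44F library in both SUM44 variants, by -0.55 ± 0.091 on the log2 scale in LTED-A (adjusted p = 7.67e-04) and -0.22 ± 0.08 in LTED-B (adjusted p = 0.0426).

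IRF9, the DNA-binding subunit of ISGF3, moved in both directions among the MM134 variants. Its level was 12.6, 13.5 and 13.1 CPM in parental cells and, in LTED-A, 20.5, 20.2 and 21.5 CPM. It was 11.2, 10.7 and 12.02 CPM in LTED-B, 5.75, 5.31 and 6.06 CPM in LTED-D and 4.47, 5.32 and 5.13 CPM in LTED-E. Thus every LTED-A library was above, and every LTED-B, LTED-D and LTED-E library below, the parental libraries. IRF9 was called higher in LTED-A (log2 fold change 0.66 ± 0.061, adjusted p = 2.53e-08) and lower in LTED-D (-1.18 ± 0.07, adjusted p = 6.47e-11) and LTED-E (-1.38 ± 0.069, adjusted p = 4.50e-12), while LTED-B was not called (-0.20 ± 0.064). In SUM44 it was 26.9, 23.5 and 21.8 CPM in SUM44F, 8.63 and 7.87 CPM (LTED-A) and 4.55, 5.56 and 6.06 CPM (LTED-B). IRF9 was lower in both (log2 fold change -1.54 ± 0.14 and -2.15 ± 0.13).

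IRF1, a factor best known for the response to interferon-gamma, fell in 2 MM134 and both SUM44 variants. MM134 parental libraries had 11.3, 12.8 and 12.1 CPM, LTED-A 6.68, 7.001 and 5.82 CPM and LTED-B 6.17, 4.94 and 5.796 CPM. LTED-D had 9.104, 7.97 and 8.78 CPM and LTED-E 10.2, 9.15 and 9.33 CPM, also below the parental range. The log2 fold change of IRF1 was -0.90 ± 0.087 in LTED-A and -1.10 ± 0.092 in LTED-B, both called, and -0.48 ± 0.089 in LTED-D and -0.33 ± 0.087 in LTED-E, not called. SUM44F had 67.7, 68.2 and 59.1 CPM, SUM44 LTED-A 30.4 and 31.7 CPM and SUM44 LTED-B 25.2, 26.9 and 26.7 CPM. Those falls were -1.06 ± 0.085 and -1.31 ± 0.075 on the log2 scale. IRF7, which amplifies type I interferon production, was not called in any LTED variant. It was at 20.4, 21.3 and 21.6 CPM in MM134 parental cells, at 29.01, 29.5 and 31.8 CPM in LTED-A and at 31.4, 31.4 and 28.7 CPM in LTED-B, with log2 fold changes of 0.51 and 0.54 that lay under the fold threshold.

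**Figure D3:**
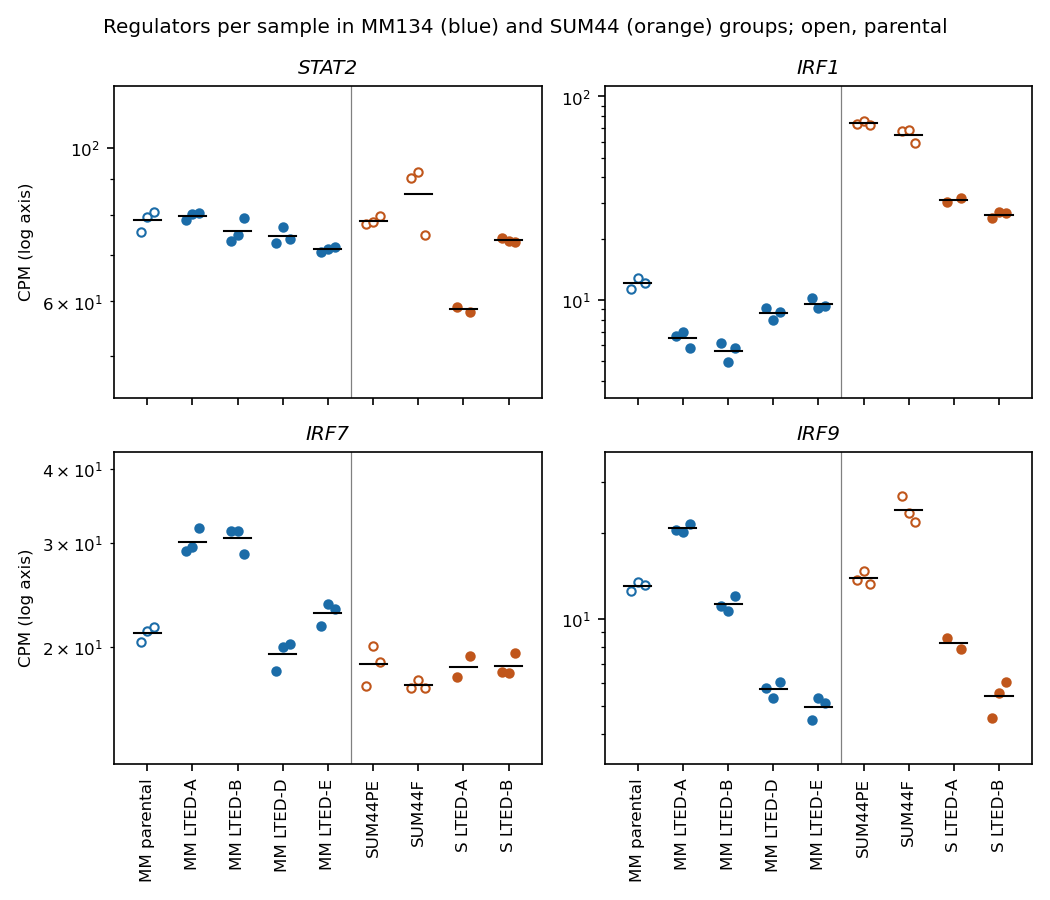
CPM (log axis) of STAT2, IRF1, IRF7 and IRF9 in each sample (points) of the 9 groups, with group means as black lines; open points are parental cultures, MM is MM134 and S is SUM44. IRF9 lies above parental cells in MM134 LTED-A and below them in MM134 LTED-D and LTED-E and both SUM44 variants, whereas STAT2 stays between 58.0 and 92.2 CPM.

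The OAS genes differed in which variant was highest. OAS1, OAS2 and OAS3 make oligoadenylates when they meet double-stranded RNA, whereas OASL lacks that activity. OAS1, OAS3 and OAS2 lie side by side at chr12:112905856-113011723, and OASL lies elsewhere on the same chromosome. OAS3 was at 0.229, 0.351 and 0.292 CPM in MM134 parental cells. It was at 3.38, 3.06 and 3.92 CPM in the LTED-A libraries, 6.75, 6.40 and 6.54 CPM in LTED-B, 44.7, 41.8 and 48.2 CPM in LTED-D and 5.31, 4.94 and 4.92 CPM in LTED-E. No variant overlapped the parental libraries, and LTED-D was the highest. The log2 fold changes of OAS3 were 3.55 ± 0.16, 4.49 ± 0.15, 7.27 ± 0.12 and 4.11 ± 0.15 in the A, B, D and E variants, with adjusted p of at most 6.51e-13.

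OAS2 was also highest in LTED-D, and went from 0.114, 0.162 and 0.1296 CPM in parental cells to 5.33, 5.67 and 5.04 CPM in LTED-D. The A, B and E variants had 0.892, 0.854 and 0.893, 0.998, 1.09 and 1.04 and 2.69, 2.56 and 2.57 CPM of OAS2. Its rise was 2.67 ± 0.19 on the log2 scale in LTED-A, 2.92 ± 0.19 in LTED-B, 5.28 ± 0.16 in LTED-D and 4.24 ± 0.17 in LTED-E. The MM134 parental levels of OAS2 and OAS3 rest on few counts, so the sizes of their rises are uncertain. OAS1, from the same cluster, was instead highest in LTED-A, at 5.31, 4.77 and 4.95 CPM, against 0.343, 0.728 and 0.454 CPM in parental cells. In LTED-D OAS1 was at 1.94, 1.97 and 2.18 CPM. OAS1 was called in LTED-A (3.28 ± 0.18) and LTED-D (1.99 ± 0.20), but not in LTED-B (0.62 ± 0.23) or LTED-E (0.96 ± 0.22). The direct test of LTED-A against LTED-D gave opposite signs within the cluster, with log2 fold changes of 1.28 ± 0.14 for OAS1, -2.61 ± 0.10 for OAS2 and -3.72 ± 0.076 for OAS3, all called.

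In SUM44 these genes started from far higher levels and the cluster again split. OAS1 fell from 369.6, 385 and 322 CPM in SUM44F to 38.5 and 42.5 CPM (LTED-A) and 29.7, 32.7 and 31.4 CPM (LTED-B) (log2 fold change -3.14 ± 0.11 and -3.52 ± 0.093). OAS3 in the same libraries was at 155, 180.0 and 139.7 CPM, 173 and 134 CPM and 126, 127 and 126 CPM, and was not called (-0.047 ± 0.12 and -0.32 ± 0.11). OAS2 lay between, with falls of -0.87 ± 0.10 and -0.97 ± 0.091, the first of which missed the threshold when only the 2 groups compared were fitted. OASL fell from 7.64, 7.17 and 6.31 CPM to 0.989 and 1.03 CPM and 1.63, 1.903 and 1.94 CPM. In MM134 OASL had risen in LTED-A (3.03 ± 0.16, from 1.201, 1.46 and 2.07 to 12.5, 12.2 and 13.9 CPM) and LTED-B (1.17 ± 0.18, at 3.39, 3.57 and 3.58 CPM).

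The IFIT genes encode proteins that bind foreign RNA and share a cluster at chr10:89283694-89421605. All 4 were higher in MM134 LTED-A. IFIT2 was at 1.37, 1.21 and 1.49 CPM in parental cells and, in LTED-A, at 14.05, 12.8 and 14.8 CPM (log2 fold change 3.35 ± 0.11, adjusted p = 6.32e-15). LTED-B had 3.62, 3.52 and 4.23 CPM, LTED-D 5.17, 5.14 and 5.13 CPM and LTED-E 1.68, 1.53 and 1.26 CPM. IFIT2 was thus above the parental range in LTED-A, LTED-B and LTED-D, all called, and overlapped it in LTED-E. IFIT3 was at 0.658, 0.567 and 0.583 CPM in parental cells and, in LTED-A, 4.46, 5.26 and 5.17 CPM (log2 fold change 3.03 ± 0.14), and it was not called in the other 3 variants. IFIT1 rose by 1.98 ± 0.13 in LTED-A. Its smaller difference in LTED-B, 0.69 ± 0.14, fell short of the threshold without any 1 of 5 of the 6 libraries compared. IFIT5 was at 3.86, 3.40 and 4.41 CPM in parental cells, and at 8.84, 7.93 and 8.82, 8.77, 7.63 and 8.06, 8.07, 8.76 and 7.201 and 6.92, 6.42 and 6.12 CPM in the A, B, D and E variants. It rose in every MM134 variant, by 1.14, 1.08, 1.06 and 0.75 on the log2 scale.

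In SUM44, IFIT1, IFIT2 and IFIT3 were lower in both variants. IFIT2 fell from 11.5, 12.01 and 10.98 CPM to 2.57 and 3.24 CPM (LTED-A) and 2.86, 3.41 and 2.81 CPM (LTED-B). IFIT1 fell from 5.16, 3.57 and 4.68 CPM to 0.494 and 0.754 CPM and 0.934, 1.09 and 0.961 CPM, and IFIT3 from 3.97, 3.398 and 4.61 CPM to 0.939 and 1.03 CPM and 0.723, 0.964 and 0.797 CPM, by -2.02 ± 0.21 and -2.27 ± 0.18 on the log2 scale. IFIT5 was not called, with 14.9, 16.04 and 16.9 CPM in SUM44F, 7.98 and 11.1 CPM (LTED-A) and 16.7, 15.4 and 16.4 CPM (LTED-B).

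BST2 and ISG20 were among the most clearly separated genes in MM134. BST2 (tetherin) is a membrane protein that holds budding virus particles on the cell surface. It was at 14.4, 15.4 and 12.9 CPM in parental cells, 159, 162 and 172 CPM in the LTED-A libraries, 75.4, 77.6 and 89.9 CPM in LTED-B, 138, 136 and 142 CPM in LTED-D and 136, 129.7 and 129.6 CPM in LTED-E. All variant libraries were thus far above the parental ones, and the log2 fold changes were 3.52 ± 0.063, 2.51 ± 0.064, 3.30 ± 0.064 and 3.22 ± 0.063. BST2 was also the gene of the list with the highest level per kilobase of exon in MM134 parental cells (12.9 CPM per kilobase) and in SUM44F (74.95 CPM per kilobase). ISG20, an exonuclease that degrades RNA, went from 3.15, 3.16 and 2.398 CPM in parental cells to 61.97, 64.9 and 63.6 CPM in LTED-A and 44.8, 43.6 and 44.3 CPM in LTED-E. LTED-B and LTED-D were between, at 21.98, 23.7 and 23.01 and 19.4, 18.5 and 18.4 CPM. ISG20 was called higher in SUM44 LTED-A as well (0.61 ± 0.093, adjusted p = 4.73e-04), the sole higher call there, and that call was lost without SUM44F replicate 1 or 2 or any 1 LTED-A sample. BST2 was not called in either SUM44 variant.

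**Figure D4:**
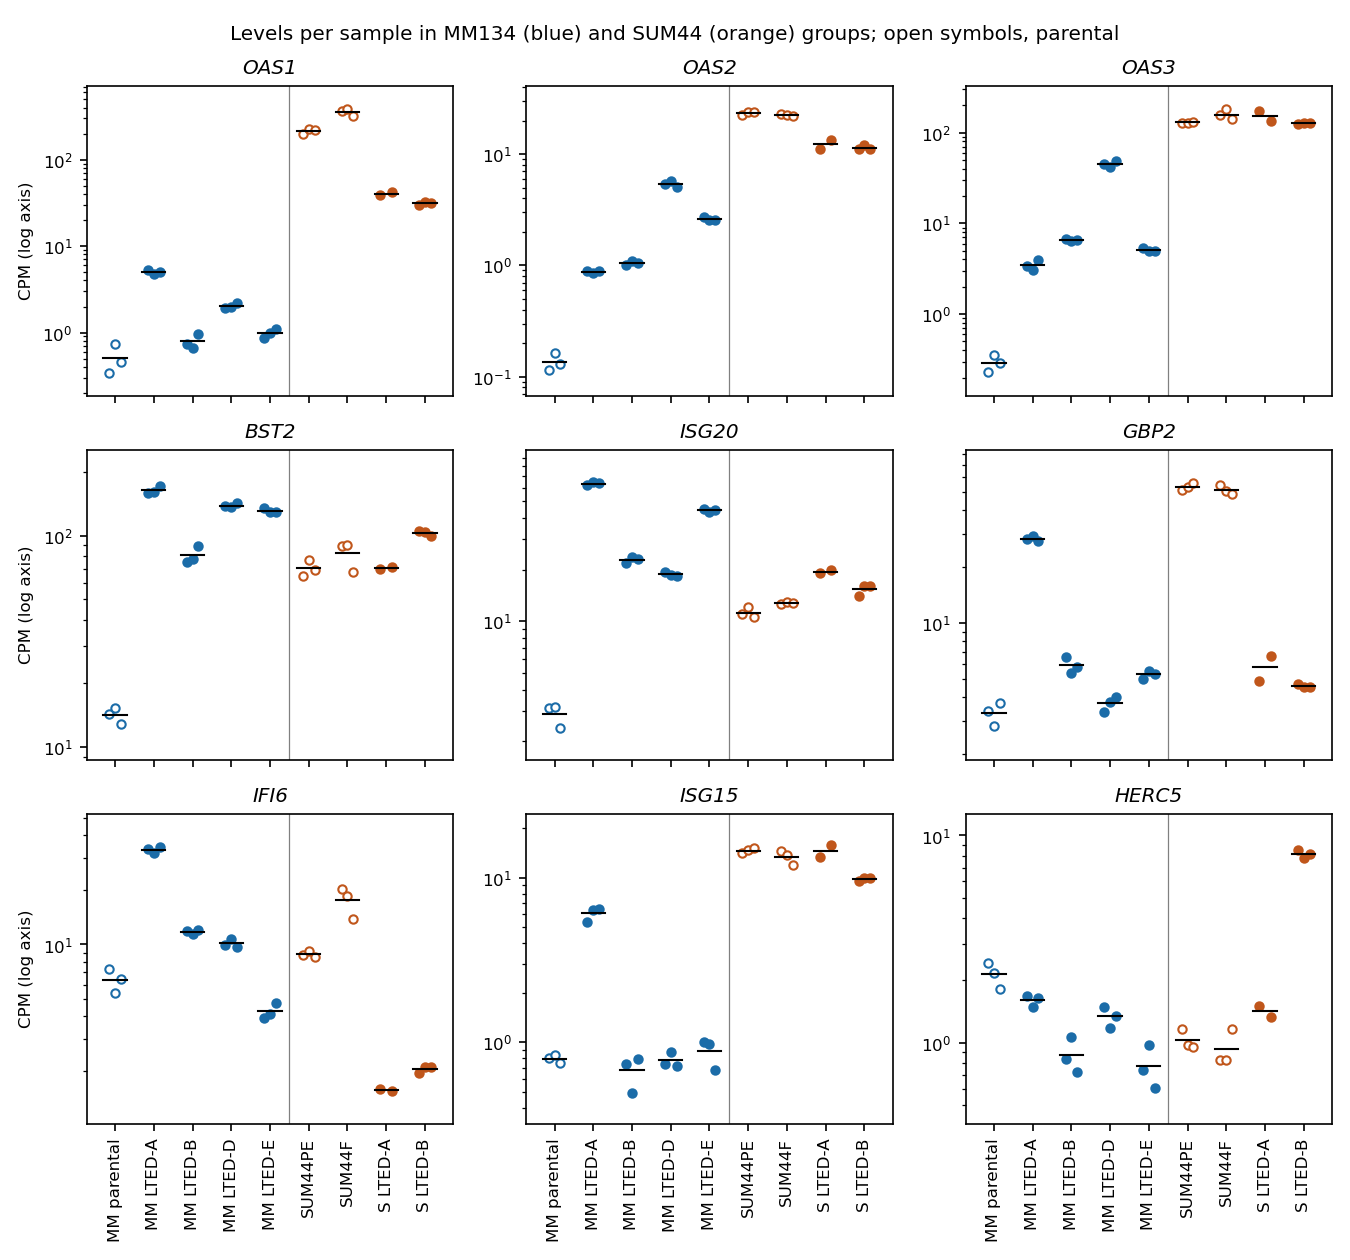
CPM (log axis, each panel with its own range) of 9 genes in each sample (points) of the 9 groups, with group means as black lines; open points are parental cultures, MM is MM134 and S is SUM44. OAS3 is highest among MM134 groups in LTED-D, ISG15 stands out in MM134 LTED-A, OAS1, GBP2 and IFI6 drop in both SUM44 variants, and HERC5 is high in SUM44 LTED-B.

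ISG15 and its conjugation enzymes did not move together. ISG15 is a ubiquitin-like protein and HERC5 its main human ligase, with HERC6 a close relative. ISG15 was at 0.801, 0.836 and 0.745 CPM in the MM134 parental libraries and, in LTED-A, at 5.38, 6.39 and 6.44 CPM, a log2 fold change of 2.92 ± 0.16 (adjusted p = 1.47e-11). In LTED-B, LTED-D and LTED-E it stayed between 0.496 and 1.01 CPM per library, and its log2 fold changes there were -0.23, -0.024 and 0.16, not called. HERC5 was lower in LTED-B (-1.28 ± 0.18) and LTED-E (-1.46 ± 0.18), and HERC6 in all 4 MM134 variants, from 3.12, 2.48 and 2.95 CPM in parental cells to 0.692, 0.9099 and 0.725 CPM in LTED-A. The B, D and E variants had 0.603, 0.8502 and 0.896, 1.55, 1.60 and 1.53 and 1.28, 1.19 and 1.11 CPM of HERC6. HERC5 was at 2.43, 2.16 and 1.81 CPM in parental cells, 0.836, 1.06 and 0.721 CPM in LTED-B and 0.741, 0.974 and 0.603 CPM in LTED-E. HERC6 was the only gene of the list called lower in all 4. In SUM44, HERC5 was the exception to the falls. It was at 0.825, 0.8203 and 1.16 CPM in SUM44F, 1.51 and 1.32 CPM (LTED-A) and 8.55, 7.79 and 8.14 CPM (LTED-B). It was higher in LTED-B by 3.10 ± 0.17 (adjusted p = 1.78e-07), and lower in LTED-A than in LTED-B by -2.53 ± 0.19. The neighbouring HERC6, in the same cluster at chr4:88378739-88506163, differed by -0.032 ± 0.35 in LTED-B, and by 0.35 without SUM44F replicate 1, not called in either fit. The 40 nearest genes tested around HERC5 had a median of -0.42 in LTED-B.

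CMPK2 and RSAD2 are neighbours as well (chr2:6840570-6898239). CMPK2 is a mitochondrial nucleotide kinase and RSAD2 (viperin) makes an antiviral nucleotide. CMPK2 had 1 count over the 3 MM134 parental libraries together and 152, 76 and 93 counts in the LTED-A libraries, or 1.52, 1.41 and 1.73 CPM. The ratio of LTED-A to parental was 142 (95% exact counting interval 25.3 to 5628), and for LTED-B, LTED-D and LTED-E 45.1, 49.5 and 91.0. These intervals cover counting error only. RSAD2 was at 0.372, 0.162 and 0.194 CPM in parental cells and, in LTED-A, 5.25, 4.77 and 5.47 CPM (4.39 ± 0.26). It was called in LTED-B too (1.65 ± 0.33), a call that was lost without parental replicate 2, parental replicate 3 or LTED-B replicate 3. In SUM44, CMPK2 was at 0.499, 0.488 and 0.535 CPM in SUM44F, 0.0247 and 0.0351 CPM (LTED-A) and 0.572, 0.643 and 0.437 CPM (LTED-B), and it was lower in LTED-A alone. That call was lost where LTED-A was left with replicate 1. In SUM44 LTED-A the median over the 40 genes around the pair was -0.53 on the log2 scale.

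The small hydrophobic proteins IFI6 and IFI27 differed between the cell lines. MM134 parental libraries had 7.32, 5.42 and 6.42 CPM of IFI6, compared with 33.5, 32.1 and 34.6 CPM in the LTED-A libraries, 11.8, 11.4 and 12.04 CPM in LTED-B and 3.903, 4.13 and 4.76 CPM in LTED-E. It rose in LTED-A (2.38 ± 0.079), LTED-B (0.89 ± 0.085) and LTED-D (0.68 ± 0.087, lost without parental replicate 2). In SUM44 it fell from 20.3, 18.6 and 13.9 CPM to 1.58 and 1.55 CPM (LTED-A) and 1.96, 2.101 and 2.11 CPM (LTED-B) (-3.49 ± 0.18 and -3.09 ± 0.15). IFI27 was not called in MM134 and fell in both SUM44 variants (-2.25 ± 0.28 and -1.90 ± 0.24), from 2.84, 2.01 and 2.15 CPM to 0.371 and 0.570 CPM (LTED-A) and 0.753, 0.643 and 0.513 CPM (LTED-B). The calls of IFI27 were lost without SUM44 LTED-A replicate 1 and without LTED-B replicate 3.

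GBP2, a guanylate-binding GTPase of cell-autonomous immunity, rose in MM134 LTED-A from 3.403, 2.81 and 3.73 to 27.98, 28.99 and 27.4 CPM (3.09 ± 0.09, adjusted p = 1.24e-15). LTED-B and LTED-E, at 6.62, 5.43 and 5.82 and 5.04, 5.57 and 5.33 CPM, had smaller rises (0.86 ± 0.10 and 0.70 ± 0.10). In SUM44, GBP2 fell from 54.4, 50.6 and 48.8 CPM to 4.92 and 6.699 CPM and 4.698, 4.57 and 4.58 CPM, with no overlap and log2 fold changes of -3.12 ± 0.13 and -3.47 ± 0.12. SUM44PE had 51.4, 53.2 and 55.6 CPM, the level of SUM44F. GBP1, next to GBP2, was under 0.6 CPM in every MM134 library and fell in SUM44 LTED-B from 1.78, 1.17 and 0.924 to 0.0602, 0.198 and 0.164 CPM (-3.10 ± 0.41), a call lost without LTED-B replicate 3.

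IFI44 had at most 7 counts in every sample outside MM134 LTED-A and SUM44F. There were 3, 2 and 1 counts in MM134 parental libraries and 148, 85 and 82 in LTED-A. The ratio was 23.2 (95% exact counting interval 10.6 to 63.8). SUM44F had 58, 54 and 103 counts against 1 in SUM44 LTED-A and 5 in SUM44 LTED-B, ratios of 206 (36.7 to 8190) and 44.2 (18.7 to 138). Its neighbour IFI44L was not called in any variant. EPSTI1 showed the same directions at low counts. It had 4 counts in MM134 parental cells and 55 in LTED-A (ratio 6.09, interval 2.25 to 23.1), and 174 in SUM44F against 3 in SUM44 LTED-A (ratio 55.7, interval 18.7 to 272.6). DESeq2 did not call EPSTI1 in MM134 LTED-A, and its lower call in SUM44 LTED-B was lost without LTED-B replicate 3.

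SAMD9 and SAMD9L are neighbouring genes for antiviral proteins that restrict translation. SAMD9L went from 0.0286, 0.0809 and 0.1296 CPM in MM134 parental cells to 1.53, 1.39 and 1.23 CPM (LTED-A) and 1.49, 1.35 and 1.24 CPM (LTED-B). It was called in all 4 variants, although LTED-E (2.23 ± 0.44) lost the call without parental replicate 1, parental replicate 2 or LTED-E replicate 3. The parental levels of SAMD9L rest on few counts, so the size of these rises is uncertain. SAMD9 was far more abundant, at 45.2, 45.3 and 46.6 CPM in parental cells. It was called higher in LTED-B (0.62 ± 0.042) and lower in LTED-E (-0.97 ± 0.044, at 23.4, 22.6 and 23.3 CPM). In SUM44, SAMD9 fell from 20.1, 21.4 and 23.5 CPM to 2.84 and 3.62 CPM (LTED-A) and 8.73, 8.48 and 7.19 CPM (LTED-B). SAMD9L fell in LTED-B alone, to 8.73, 8.95 and 8.33 CPM from 28.6, 28.3 and 29.98 CPM, with 19.2 and 21.1 CPM in LTED-A. The direct test of LTED-A against LTED-B again gave opposite signs for the pair, -1.31 ± 0.14 for SAMD9 and 1.22 ± 0.087 for SAMD9L.

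IFITM3, which blocks virus entry at endosomes, was lower in 3 MM134 variants and higher in the fourth. It was at 10.8, 10.6 and 10.8 CPM in parental cells, 3.199, 3.18 and 4.04 CPM in the LTED-A libraries, 1.67, 1.68 and 1.62 CPM in LTED-B, 1.81, 2.36 and 1.905 CPM in LTED-D and 28.7, 29.1 and 30.1 CPM in LTED-E. The log2 fold changes were -1.64 ± 0.082, -2.69 ± 0.10, -2.39 ± 0.10 and 1.46 ± 0.074. IFITM3 was lower in SUM44 LTED-B as well (-1.03 ± 0.15), a call lost without SUM44F replicate 2 or any 1 LTED-B library. IFITM1 fell in MM134 LTED-B (-0.64 ± 0.07) and IFITM2 rose in LTED-D (0.90 ± 0.20), the latter lost without any 1 of 5 of the 6 libraries. IFITM2 was at 2.03, 1.54 and 0.907 CPM in parental cells and 2.78, 3.03 and 2.58 CPM in LTED-D. IFITM1, IFITM2 and IFITM3 are close paralogs, so reads that match several were shared out by estimation.

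The PARP9 complex fell in MM134 LTED-A. DTX3L and PARP9 form a ubiquitin ligase and ADP-ribosyltransferase pair, and PARP14 is a related transferase. PARP9 was at 23.4, 23.7 and 22.3 CPM in parental cells and, in LTED-A, 13.01, 12.6 and 13.7 CPM (-0.83 ± 0.051), and DTX3L at 51.2, 52.2 and 51.1 and 26.2, 27.2 and 27.5 CPM (-0.94 ± 0.036). PARP14 was at 48.3, 47.3 and 49.7 CPM in parental cells and 29.3, 28.6 and 28.5 CPM in LTED-D. It fell in LTED-A, LTED-B and LTED-D (-1.02 ± 0.037, -0.78 ± 0.038 and -0.74 ± 0.038). None of these 3 genes was called in SUM44. PARP9 and DTX3L overlap on opposite strands, as do CMPK2 and RSAD2, and the strand setting of the counting is not given in the sources used here, so reads in such an overlap could not be assigned to 1 gene with certainty.

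The RNA sensor IFIH1 (MDA5) rose modestly in all 4 MM134 variants. It was at 21.02, 19.99 and 19.8 CPM in parental cells and, in LTED-A, at 39.8, 37.3 and 39.3 CPM, and the log2 fold changes were 0.93 ± 0.035, 0.62 ± 0.036, 0.67 ± 0.036 and 0.63 ± 0.036. The RNA-activated kinase EIF2AK2 (PKR) was abundant in every group and not called, at 133 ± 3.95 CPM (SD, n = 3) in the MM134 parental libraries and 133 ± 5.45 CPM in SUM44F. MX1 and MX2, dynamin-like GTPases commonly used as markers of interferon exposure, were not called in any LTED variant. MX1 was at 4.204, 4.26 and 4.54 CPM in the MM134 parental libraries and, in LTED-A, 4.92, 4.53 and 4.501 CPM. SP100, a nuclear body protein, rose in MM134 LTED-E (0.88 ± 0.13, from 2.37, 1.97 and 2.59 to 4.002, 4.83 and 3.77 CPM) and marginally in LTED-A (0.59 ± 0.13, lost without any 1 of 5 of the 6 libraries) and fell in both SUM44 variants (-0.83 ± 0.094 and -0.96 ± 0.083). TRIM22 fell in SUM44 LTED-B (-1.10 ± 0.18, lost without SUM44F replicate 3 or any 1 LTED-B library) and IFI35 rose in MM134 LTED-D (0.62 ± 0.067, lost without parental replicate 1). PLSCR1 and XAF1 completed the 8 genes called in no LTED comparison, which were STAT2, IRF7, MX1, MX2, EIF2AK2, IFI44L, PLSCR1 and XAF1.

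MM134 LTED-A was tested directly against each other MM134 variant, and the other pairs of MM134 variants were not tested. The shared parental libraries did not enter these differences. They were part of the fit and so of the filter, the scaling and the estimate of spread. LTED-A was higher than LTED-B in 18 genes and lower in 1, where 7.06% of all genes were called (4.06% higher and 3% lower). Against LTED-D it was higher in 18 and lower in 5 (all genes 9.88%, with 4.47% higher and 5.41% lower). Against LTED-E it was higher in 14 and lower in 3 (all genes 7.84%, with 5.2% and 2.65%). Of the 43 genes, 24 had their highest mean among the 4 variants in LTED-A, 9 in LTED-D, 6 in LTED-E and 4 in LTED-B. The matching shares over all genes are not given here. The genes called higher in LTED-A than in each other variant were ISG15 (log2 fold change 3.14 ± 0.16 against LTED-B), IRF9, IFIT1, IFIT2, IFIT3, OAS1, OASL, IFI6, IFI44, GBP2 and RSAD2. Those below LTED-D were OAS2, OAS3, HERC6, PARP9 and DTX3L. BST2 did not differ from LTED-D (0.22 ± 0.051) or LTED-E (0.30 ± 0.051) beyond the threshold. The 2 SUM44 variants differed in 4 of the 43 genes (9.30%). Over all genes 7.42% differed, with 3.56% higher and 3.86% lower in LTED-A. SAMD9L was higher in LTED-A, and HERC5, CMPK2 and SAMD9 were higher in LTED-B. The count was 7 with LTED-A replicates 2 and 3 kept separate and 10 at an adjusted p under 0.05. For those settings the share of all genes called is not given here.

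The 2 parental cultures had very different starting levels. MM134 parental cells were lower than SUM44F in 28 of the 43 genes and higher in 5 (all genes 38.1%, with 19.2% lower and 18.9% higher), with a median log2 difference of -1.53. Without SUM44F replicate 1 the counts were 26 and 6 (37.8% of all genes called). OAS1 differed most, at 0.508 ± 0.198 CPM against 359 ± 32.95 CPM (SD, n = 3 each). Also far apart were OAS3, at 0.2904 ± 0.0610 against 158 ± 20.3 CPM, and SAMD9L, at 0.0797 ± 0.0505 against 28.97 ± 0.890 CPM. IFITM1, HERC5, HERC6, SAMD9 and PLSCR1 were the 5 higher in MM134. In MM134 parental cells 29 of the 43 genes had a mean of at least 1 CPM, compared with 36 in LTED-A, 30 in LTED-B, 32 in LTED-D and 29 in LTED-E. In SUM44F there were 38, compared with 31 in each SUM44 variant.

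The difference in the LTED effect between the cell lines was tested as an interaction, the mean of the 4 MM134 effects minus the mean of the 2 SUM44 effects. Its p-values and standard errors measure the spread between wells, not the spread between the variants averaged. This difference was called in 26 of the 43 genes, with 25 positive and 1 negative (all genes 20.9%, with 10.8% positive and 10.2% negative). The median was 1.35. Without SUM44F replicate 1 it was called in 25 genes, of which 24 were shared (20.9% of all genes called). ISG15 and IFI35 were lost and PARP14 was gained (-0.59), so 23 were positive and 2 negative. The fitted mean effect was above 0 in MM134 and below 0 in SUM44 for 24 genes, and 20 of these were among the 26. The share of all genes with these opposite signs is not given here. CMPK2, IFI44 and EPSTI1 had the largest fitted differences. These rest on counts near 0 in MM134 parental cells and in SUM44 LTED-A for all 3, and in SUM44 LTED-B for IFI44. They were followed by OAS1 (5.03 ± 0.16, adjusted p = 5.89e-17), OAS3 (5.03 ± 0.19) and OAS2 (4.69 ± 0.16). Of these, OAS2 and OAS3 had few counts in MM134 parental cells, so the sizes of their differences are uncertain. For BST2 (3.08 ± 0.10) and ISG20 (3.06 ± 0.088) the difference came with an MM134 rise and SUM44 mean effects of 0.049 and 0.44. BST2 was not called in either SUM44 variant. HERC5 was the sole negative gene in the fit on all libraries (-2.79 ± 0.21). For IRF9, SAMD9 and IFI27 the MM134 mean effect was itself below 0. Since the interaction averages variants, a gene that moved in 1 variant, such as ISG15 in MM134 LTED-A, can enter it (0.86 ± 0.18).

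**Figure D5:**
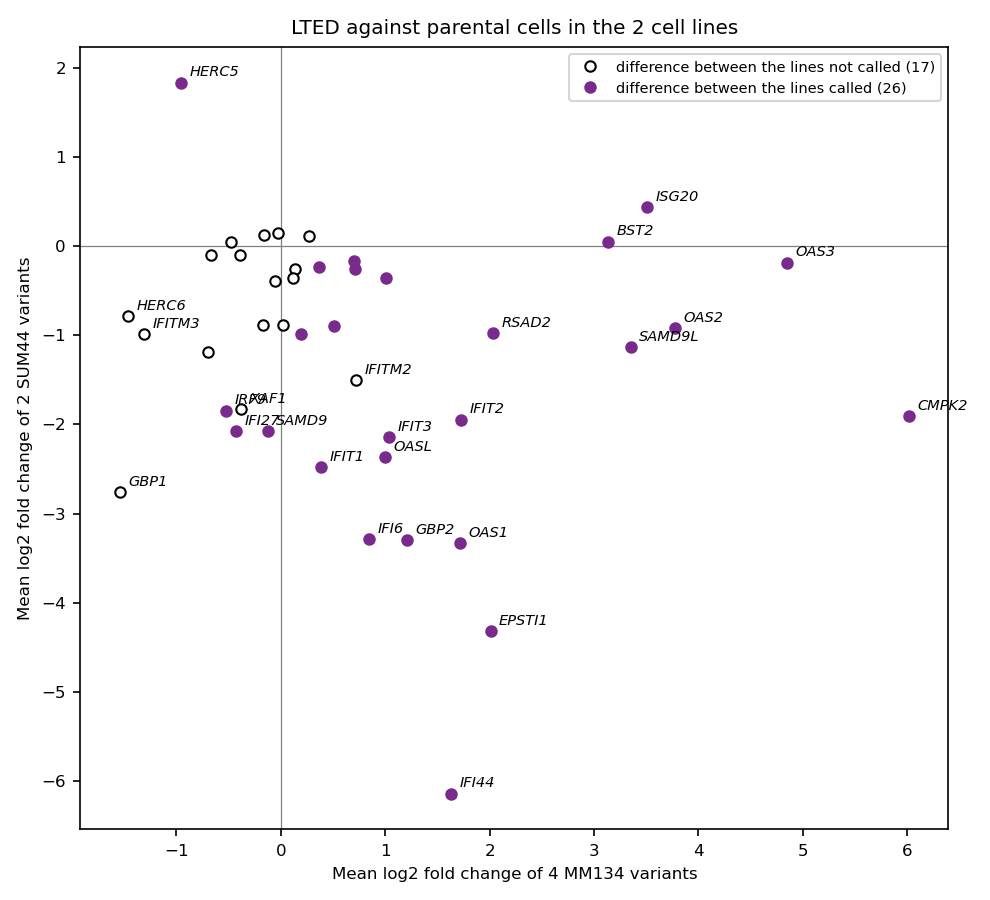
Mean fitted log2 fold change of the 4 MM134 variants (x axis) and of the 2 SUM44 variants (y axis) for each of the 43 genes (points), each against its own parental culture. Filled points are the 26 genes whose difference between the lines was called, and open points the other 17. The lower right part, above 0 in MM134 and below 0 in SUM44, holds 24 genes, and HERC5 lies alone at the upper left among the filled points.

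SUM44PE, the culture from which SUM44F was derived, was compared with SUM44F on its own. It was lower in 7 genes and higher in 0 (all genes 5.57%, with 2.72% lower and 2.85% higher, and a median log2 fold change of -0.30 for the 43 genes). The 7 were IRF9, IFIT1, IFIT5, OAS1, OASL, IFI6 and IFI44. Without SUM44F replicate 1 they were 5, without IFIT1 and IFIT5 (5.1% of all genes called). Without SUM44PE replicate 1 or 3 they were 4. OAS1 was at 199.6, 227 and 219 CPM in SUM44PE (-0.75 ± 0.083), still several times its level in the SUM44 variants. IFI6 was at 8.79, 9.204 and 8.54 CPM (called lower, with 0.5001 times the level of SUM44F).

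The rest of the pathway was followed with 73 further genes. Of the 10 interferon genes looked at, none passed the filter on low counts in MM134 and 2 did in SUM44 (IFNK and IFNW1, neither called in an LTED comparison). Of the 55 genes tested in MM134, LTED-A had 15 higher and 7 lower, LTED-B 11 and 9, LTED-D 16 and 4, and LTED-E 13 and 10. Over all genes 10.5% were higher and 9.82% lower in LTED-A, 8.11% and 7.75% in LTED-B, 9.63% and 7.95% in LTED-D and 8.71% and 10.3% in LTED-E. Of the 61 tested in SUM44, LTED-A had 3 higher and 22 lower (all genes 6.39% and 7.28%) and LTED-B 4 and 16 (all genes 8.69% and 8.57%). Without SUM44F replicate 1, 60 were tested, with 2 higher and 17 lower in LTED-A (12.1% of all genes called) and 4 and 14 in LTED-B (15.8%).

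Among receptors and kinases, IFNGR1, the ligand-binding chain of the interferon-gamma receptor, rose in all 4 MM134 variants and fell in both SUM44 variants. It was at 25.6, 24.1 and 25.4 CPM in the MM134 parental libraries and, in LTED-A, 85.8, 84.3 and 81.6 CPM (1.74 ± 0.036). In SUM44F it was at 229, 224 and 231 CPM, in SUM44 LTED-A at 29.04 and 36.2 CPM and in LTED-B at 74.9, 73.7 and 73.04 CPM (-2.80 ± 0.10 and -1.63 ± 0.083). The kinase JAK1 was lower in all 6 variants, by between -0.66 (MM134 LTED-D) and -1.13 (MM134 LTED-A) on the log2 scale. Among sensors, the DNA sensor CGAS rose in MM134 LTED-A from 0.801, 1.11 and 1.07 to 7.04, 6.81 and 6.81 CPM (2.79 ± 0.13) and less in LTED-D (1.02 ± 0.15), and fell in LTED-B (-0.80 ± 0.18). In SUM44 it rose in LTED-A (1.25 ± 0.19) and fell in LTED-B (-1.09 ± 0.19), and neither was called without SUM44F replicate 1. RIGI, an RNA sensor, rose in MM134 LTED-A (0.59 ± 0.051) and fell in both SUM44 variants (-1.78 ± 0.10 and -1.66 ± 0.086). The DNA sensor IFI16 was at 4.82, 1.27 and 1.33 CPM in SUM44F, with 1 count or 0 in each sample of the SUM44 variants.

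SOCS3, a feedback inhibitor of JAK signalling, was lower in all 4 MM134 variants. It went from 5.75, 7.04 and 7.35 CPM in parental cells to 0.361, 0.427 and 0.484 CPM in LTED-A (-4.01 ± 0.14). In SUM44, SOCS3 was not called in LTED-A (-0.58) or LTED-B (0.79). Without SUM44F replicate 1 it was called higher in LTED-B (1.01). SOCS1, of the same family, fell in MM134 LTED-A (-2.39 ± 0.47) and in both SUM44 variants (-1.57 ± 0.26, not called without SUM44F replicate 1, and -2.10 ± 0.24). Among other interferon-induced genes, IFI30, a lysosomal thiol reductase, rose from 14.3, 15.3 and 14.8 CPM to 121, 124 and 129.5 CPM in MM134 LTED-A and was higher in all 4 variants, as were TDRD7 (3.33 ± 0.048 in LTED-D) and LY6E (2.18 ± 0.043 in LTED-A). LY6E rose in both SUM44 variants too (1.03 ± 0.15 and 0.97 ± 0.13). The helicases DDX60 and DDX60L fell in both SUM44 variants, by -2.31 ± 0.10 and -2.45 ± 0.088 in LTED-A. In MM134 both rose in LTED-D and fell in LTED-B and LTED-E. Among targets typical of interferon-gamma, the chemokine CXCL10 fell from 14.2, 15.04 and 14.8 CPM in SUM44F to 1.85 and 2.42 CPM (LTED-A) and 0.542, 0.4697 and 0.437 CPM (LTED-B). CIITA, the activator of MHC class II genes, rose in MM134 LTED-A (1.62 ± 0.056), LTED-D (1.16 ± 0.059) and LTED-E (1.27 ± 0.058), and fell in both SUM44 variants (-0.79 ± 0.13, not called without SUM44F replicate 1, and -1.05 ± 0.12).

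Markers of other cell types moved with the MM134 groups as well. The fibroblast markers summed to between 19.96 and 30.8 CPM in MM134 parental libraries and between 7.43 and 23.5 CPM in the MM134 variants. The endothelial sums were 1.46 to 2.72 CPM in MM134 parental libraries and 1.62 to 5.09 CPM in the variants. The leukocyte list of 9 genes summed to between 1.46 and 1.88 CPM in MM134 parental libraries, 8.19 to 8.85 CPM in LTED-A, 3.74 to 4.39 CPM in LTED-B, 7.43 to 7.69 CPM in LTED-D and 17.0 to 17.8 CPM in LTED-E. ITGAM made up most of the sum in each of these variants. It was at 0.372, 0.324 and 0.356 CPM in parental cells and 16.5, 16.1 and 16.9 CPM in LTED-E. Its means in LTED-A, LTED-B and LTED-D were 7.42, 3.08 and 6.51 CPM. The pan-leukocyte gene PTPRC had a mean of 0.177 CPM in parental cells. In the A, B, D and E variants PTPRC was at 0.152, 0.129, 0.256 and 0.137 CPM. The part of these markers in the differences was not tested. In bulk RNA, fewer cells of a type and less RNA per cell cannot be told apart.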

How the data were processed

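RNA was sequenced from 27 libraries (TruSeq Stranded Total RNA) of 9 groups. Per the labels and the study's methods, the authors quantified reads with Salmon 0.6.0 and deposited estimated counts per Ensembl gene, not normalized, for 60619 genes. The strand setting is not given in the sources used here. Symbols and positions came from GENCODE v44, which matched 56434 of the IDs. Counts were rounded, filtered with filterByExpr, scaled by TMM and tested two-sided with edgeR 4.0.16 (R 4.3.3) quasi-likelihood fits, 1 for each cell line, 1 adding SUM44PE and 1 over both lines. Adjustment was over all genes tested, and a call needed a fold change over 1.5 and an adjusted p under 0.001. SUM44 LTED-A replicates 2 and 3 were averaged. The script was tested on simulated counts. The 43 genes, the pathway and marker lists and the tests were chosen with earlier results of these data known. Per-library values are printed for STAT2, IRF1, IRF7, IRF9 and, in each LTED comparison, for up to 12 called genes by size of change, among those whose mean reached 1 CPM in either group; some other genes were named after their values were seen. Alternatives were DESeq2 1.42.0, other scalings, filters and thresholds, a replicate block and leaving out each library; the pathway counts without SUM44F replicate 1 were added after seeing the data. Promoters came from RefSeq windows (GRCh38.p14). Plots used matplotlib 3.10.9.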

Additional observations from a re-analysis of the deposited data

Results flagged for a closer look

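The difference between the LTED effects in the 2 cell lines, tested as an interaction (mean of the 4 MM134 effects minus mean of the 2 SUM44 effects, log2, edgeR), was called in 26 genes, which were therefore listed for a closer look. The values were 7.95 for CMPK2, 7.72 for IFI44 and 6.32 for EPSTI1, whose counts were near 0 in 1 or more groups. Among the OAS genes they were 5.03 for OAS1, 5.03 for OAS3, 4.69 for OAS2 and 3.35 for OASL. The IFIT genes had 3.66 for IFIT2, 3.17 for IFIT3, 2.85 for IFIT1 and 1.35 for IFIT5. GBP2 had 4.49, SAMD9L 4.48, IFI6 4.12, BST2 3.08, ISG20 3.06 and RSAD2 3.01. SAMD9 had 1.94, IFI27 1.63, SP100 1.4, IRF9 1.31, TRIM22 1.18 and IFIH1 0.96. ISG15 had 0.86 and IFI35 0.59, and both calls were lost without SUM44F replicate 1. HERC5 alone was negative, at -2.79.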

How the results depend on the processing

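Of 117 calls of the 43 genes in the 6 LTED comparisons, 78 were kept under every alternative run, 39 were lost under at least 1 and 0 reversed. With a fold change minimum of 2, 11 genes were called in MM134 LTED-D and 3 in SUM44PE against SUM44F. Between the SUM44 variants, 7 genes were called with LTED-A replicates 2 and 3 kept separate and 10 at an adjusted p under 0.05. The share of all genes called is printed for the fits without SUM44F replicate 1 but not for the other alternatives. Leaving out 1 library at a time left between 26 and 27 genes for MM134 LTED-A, 19 and 21 for LTED-B, 15 and 17 for LTED-D, 15 and 16 for LTED-E, 15 and 19 for SUM44 LTED-A and 15 and 20 for SUM44 LTED-B, with 4 to 6 in SUM44PE against SUM44F and 24 to 28 in the interaction. In the median, samples with the same replicate number did not deviate together (r = -0.0292 over 48 pairs of samples, against 0.0031 over 96 pairs with different numbers). Pairing by number was thus not detected, although a pooled median cannot exclude it for some groups. With the replicate block, 26 genes were called in MM134 LTED-A. Genes with few counts in a group, such as CMPK2, IFI44, EPSTI1 and, in MM134 parental cells, SAMD9L, OAS2, OAS3 and RSAD2, are limited by counting error.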
